A study of Saccharomyces cerevisiae with 8 samples.

Results

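The genes described here make up the cytosolic protein synthesis machinery of budding yeast, Saccharomyces cerevisiae: the aminoacyl-tRNA synthetases and the factors for initiation, elongation and release. The list held 53 genes, and a gene was taken as measured where a probe set of the array carried its symbol and no other. That left 47 genes on 49 probe sets, of 5580 named genes on 8330 probe sets in all. They were 18 synthetase, 23 initiation factor, 4 elongation factor and 2 release factor genes. The other 6, TIF1 and TIF2 for eIF4A, TEF1 and TEF2 for eEF1A, and EFT1 and EFT2 for eEF2, are gene pairs that share a probe set, and they were not analysed here. Total RNA was hybridised to 8 one-colour oligonucleotide arrays, 2 for each of 4 groups: wild type yeast and an sgs1 null strain, each in log phase, without treatment or with MMS (methyl methanesulfonate, an agent that alkylates DNA). SGS1 encodes a DNA helicase of the RecQ family. The sources used here give no MMS dose or time, no strain background and no account of how the null allele was made. No label names separate cultures for the paired arrays, and the spread that the p-values rest on, between arrays of a group, may be technical.

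An aminoacyl-tRNA synthetase joins an amino acid to its tRNA. Initiation begins when eIF2 carries the initiator tRNA to the small ribosomal subunit. There eIF3, eIF1, eIF1A and eIF5 help to find the start codon on an mRNA held by the cap-binding factors and the poly(A)-binding protein. Each round leaves eIF2 bound to GDP, and eIF2B exchanges it for GTP. In yeast the kinase Gcn2 phosphorylates eIF2 under amino acid starvation and some other stresses, which inhibits eIF2B, slows general translation and favours translation of the GCN4 mRNA. Arrays measure RNA, so that control is outside these data. In a bulk culture, a change in a share of the cells and a change in RNA per cell cannot be told apart.

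The strain labels were checked on SGS1 itself. Its deposited intensity was between 339.1 and 777.3 on the 4 wild-type arrays and between 1.7 and 17.7 on the 4 sgs1 null arrays. The translation genes were bright: 44 of the 47 had a mean level above the median of all 7641 features, and no value of theirs was at the floor set on low intensities. The lowest was 207, for TIF4632. Their spread between arrays of a group was like that of other features, with a median residual SD of 0.29 on the log2 scale against 0.30 over all features.

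MMS moved few of these genes by enough to be called. In the comparison with most power, MMS minus untreated averaged over the strains, 1 of the 47 genes passed an adjusted p of 0.05 in limma's fit, against 15.6% of all features and 17.5% of the 3820 features above the median level. That gene was GCD1, which rose, as did 8.78% of all features. Within each strain limma called 0 of the 47, where the background was 6.35% in wild type (7.04% above the median level) and 2.51% in the sgs1 null strain (3.27%). At an unadjusted p under 0.05 the members numbered 10 of 47 averaged over strains, where the background was 31.7%. They numbered 8 in wild type (background 24.6%) and 4 in the null strain (background 20.2%). With quantile normalization the differences themselves were smaller too. Averaged over strains, the median size of the log2 difference was 0.25 for the 47 genes, 0.33 over all features and 0.34 over those above the median level. No member differed by more than 1 log2 unit, a 2-fold change, in that comparison, as 9.06% of all features did. For 35 of the 47 genes the 95% interval of the difference, with quantile normalization, lay wholly within 2-fold in either direction. Neither these sizes nor the intervals cover the choice of scaling. With median scaling the median difference of the 47, sign kept, was -0.18 in place of -0.11. Whether the sizes stayed below those of all features under that scaling was not examined. For the other 12 the arrays do not bound the difference that closely.

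**Figure D1:**
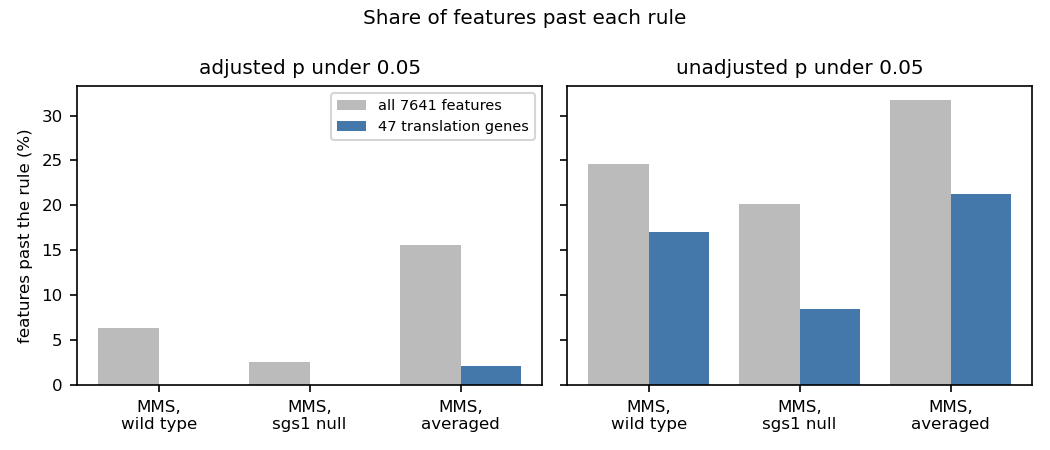
Share of features (%) past an adjusted (left) or unadjusted (right) p of 0.05 in limma's fit, for MMS in wild type, in sgs1 null and averaged over strains, for all 7641 features (grey) and the 47 translation genes (blue). The blue bar is the lower of each pair, and the adjusted count for the translation genes is 0 in both single-strain comparisons.

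Among the 5 subunit genes of eIF2B, the exchange factor for eIF2, GCD1 stood out. GCD1 encodes the gamma subunit, which forms the catalytic part with Gcd6. Its normalized intensity was 2182 and 2604 in untreated wild type and 3239.9 and 4263 with MMS, and 2511 and 1985 in the untreated null strain and 4677 and 5437 with MMS. All 4 MMS-treated arrays lay above all 4 untreated ones. Averaged over strains GCD1 rose by 0.91 ± 0.15 on the log2 scale (limma adjusted p = 0.0211), which is 1.88-fold. In wild type alone the difference was 0.64 ± 0.21 (adjusted p = 0.143), and in the null strain it was 1.18 ± 0.21 (adjusted p = 0.0632). Leaving out 1 array kept the averaged difference between 0.81 and 1.00, while its adjusted p ran from 0.0428 to 0.0669. It stayed under 0.05 in 2 of those 8 fits, the ones that dropped the first wild-type MMS array (0.0429) or the first untreated null array (0.0428).

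The other eIF2B genes did not pass in the main fit. GCD6, for the catalytic epsilon subunit, differed by 0.61 ± 0.18 averaged over strains (limma adjusted p = 0.0914). It rested on the untreated wild-type arrays: the difference was 0.78 without the first, where it passed (adjusted p = 0.0362), and 0.42 without the second (adjusted p = 0.102). GCD2, for delta, differed by 0.39 ± 0.19, and GCN3, for alpha, by 0.39 ± 0.18. GCN3, and with it HCR1 and CDC33, passed averaged over strains when the mark rep of the second arrays was added as a block. That fit called more of all features as well, and the mark was not taken as a pairing, as set out at the end. GCD7, for beta, was the one eIF2B gene with a difference below 0, at -0.15 ± 0.25. Its intensities were 2130.1 and 2691 in untreated wild type, 1493 and 2446 with MMS, 1878 and 1663 in the untreated null strain and 1403 and 2318 with MMS. The treated and untreated GCD7 arrays overlapped in each strain. The eIF2B genes together had the highest class median of the MMS difference, 0.39 averaged over strains, where the median over all features was 0.003. In wild type their median depended on the untreated arrays: it was 0.39 with both, 0.02 without the second and 0.52 without the first. The 3 genes of eIF2 itself, with GTP-binding gamma encoded by GCD11, showed small differences. SUI2, for the alpha subunit that Gcn2 phosphorylates, gave 1052 and 1439 in untreated wild type, 1056 and 1602 with MMS, 733 and 1153 in the untreated null strain and 1059 and 1313 with MMS. For SUI3, the beta subunit gene, the values were 3047 and 3089, then 3104 and 2469.6 with MMS in wild type, and 3074 and 3758, then 3141 and 2335 with MMS in the null strain. Both genes overlapped between treatments in each strain, and averaged over strains they differed by 0.22 ± 0.24 and -0.24 ± 0.14. GCD11 differed by 0.15 ± 0.18.

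**Figure D2:**
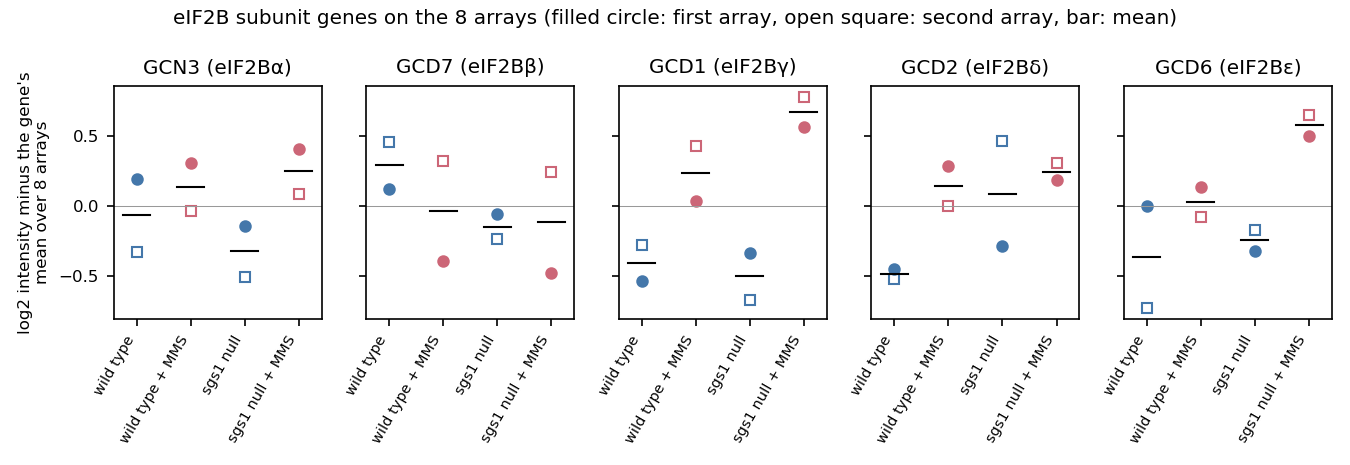
Log2 intensity of each eIF2B subunit gene on the 8 arrays, minus that gene's mean over all arrays, for the 4 groups. Points are arrays and bars are group means. GCD1 is the panel in which all MMS-treated points (red) lie above all untreated points (blue). GCD7 overlaps in each strain.

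In eIF3, the scaffold of the initiation complex, 5 of 6 genes had a difference above 0 averaged over strains, and none passed in the main fit. HCR1, for the loosely bound j subunit, was highest in the class. Its intensities were 3898 and 5823 in untreated wild type and 5528 and 7918 with MMS, which overlap. In the null strain they were 3698 and 4350.2 untreated and 5758 and 6696 with MMS, which do not. The averaged difference was 0.55 ± 0.19 (limma adjusted p = 0.128). TIF34, for subunit i, was lowest, at -0.07 ± 0.12, and its strains lay on opposite sides of 0. In wild type it read 3677 and 3897 untreated and 2574 and 3204 with MMS, a difference of -0.40 ± 0.17. In the null strain it read 2657 and 2960.5 untreated and 2949.8 and 3782 with MMS, a difference of 0.25 ± 0.17. RPG1 (0.40 ± 0.27), TIF35 (0.29 ± 0.19), PRT1 (0.20 ± 0.13) and NIP1 (0.07 ± 0.25), for subunits a, g, b and c, lay between them.

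TIF5 was the largest difference among the factors that act at the start codon. It encodes eIF5, which makes eIF2 hydrolyse its GTP. Its intensities were 1342 and 913 in untreated wild type and 2205 and 1512 with MMS, and 955 and 1129 in the untreated null strain and 2120.0 and 1335 with MMS. The groups were separate within each strain, though the lowest treated value (1335) fell just below the highest untreated one (1342). The averaged difference was 0.71 ± 0.24 and did not pass (limma adjusted p = 0.118). TIF11, for eIF1A, was at the other end of this class at -0.35 ± 0.14 (adjusted p = 0.163). Its values were 2425 and 3217 in untreated wild type, 2533 and 2514 with MMS, 3271 and 3393 in the untreated null strain and 2617 and 1963 with MMS. In wild type the TIF11 groups overlapped, and in the null strain they did not. SUI1, for eIF1, differed by -0.14 ± 0.22 and FUN12, for the subunit-joining factor eIF5B, by -0.15 ± 0.28.

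The genes for eIF4G, the scaffold that links the cap-binding protein to the poly(A)-binding protein, are a duplicated pair. TIF4632 had the lowest averaged difference of all 47 genes and TIF4631 one above 0. TIF4632 read 468 and 565 in untreated wild type and 207 and 427 with MMS, and 412 and 516 in the untreated null strain and 227 and 395 with MMS. TIF4631 read 595 and 701 in untreated wild type, 613 and 727 with MMS, 477 and 717 in the untreated null strain and 948 and 721 with MMS. In each strain the TIF4632 groups were separate, but its 2 MMS arrays also stood far apart. The averaged differences were -0.71 ± 0.31 for TIF4632 (limma adjusted p = 0.202) and 0.27 ± 0.18 for TIF4631 (adjusted p = 0.383), and whether the copies differ from each other was not tested. CDC33, for the cap-binding protein eIF4E, differed by -0.50 ± 0.19 (adjusted p = 0.156). TIF3, for eIF4B, differed by -0.25 ± 0.08 (adjusted p = 0.109) and PAB1, for the poly(A)-binding protein, by -0.31 ± 0.36.

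Of the 18 synthetase genes, none passed in any comparison with quantile normalization of all 8 arrays. Averaged over strains 13 had an MMS difference below 0, with a median of -0.15, where 46.4% of all features lay below 0. Without the second untreated wild-type array 11 of the 18 lay below 0, with a median of -0.06. Without the first, 14 did, with a median of -0.19. DPS1, for the aspartyl enzyme, was lowest. It read 8088 and 11766 in untreated wild type, 3715 and 7130.1 with MMS, 7222 and 6155 in the untreated null strain and 4010.1 and 6217 with MMS. Its wild-type groups were separate and its null-strain groups overlapped, and the averaged difference was -0.67 ± 0.29 (limma adjusted p = 0.193). ILS1, for the isoleucyl enzyme, was highest at 0.25 ± 0.20. It read 1635 and 2804 in untreated wild type, 1788 and 2229 with MMS, 1818 and 1549 in the untreated null strain and 2405 and 2682 with MMS, so its groups overlapped in wild type alone. The synthetase closest to the threshold was HTS1, which encodes the cytosolic and the mitochondrial histidyl enzyme. In wild type it went from 6445 and 7011 to 4004 and 3820.2 with MMS, a difference of -0.78 ± 0.17 (adjusted p = 0.0655). In the null strain it read 5020.0 and 4635 untreated and 3639 and 5023 with MMS, a difference of -0.17 ± 0.17. With median scaling HTS1 passed in wild type (-0.94, adjusted p = 0.0484) and averaged over strains (-0.58, adjusted p = 0.0414). It also passed in wild type without the first or the second treated null array (adjusted p = 0.0451 and 0.0447), and averaged over strains without the second (0.0317). For TYS1 (tyrosyl) and SES1 (seryl) the averaged differences were -0.66 ± 0.23 (adjusted p = 0.123) and -0.48 ± 0.17 (adjusted p = 0.133).

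The remaining synthetases had differences between -0.33 and 0.16, and the signs of GUS1 and MES1 changed with the scaling of the arrays. Averaged over strains, THS1 (threonyl) differed by -0.33 ± 0.22, DED81 (asparaginyl) by -0.28 ± 0.22, WRS1 (tryptophanyl) by -0.26 ± 0.16, GRS1 (glycyl) by -0.24 ± 0.19 and VAS1 (valyl) by -0.20 ± 0.15. The subunits of the phenylalanyl enzyme gave -0.11 ± 0.21 for FRS1 and -0.07 ± 0.27 for FRS2. KRS1 (lysyl), CDC60 (leucyl), GUS1 (glutamyl), ALA1 (alanyl) and GLN4 (glutaminyl) lay between -0.08 and 0.16. MES1, for the methionyl enzyme, which charges the initiator tRNA as well, was the most closely bounded near 0, with a difference of -0.02 and a 95% interval from -0.26 to 0.23.

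**Figure D3:**
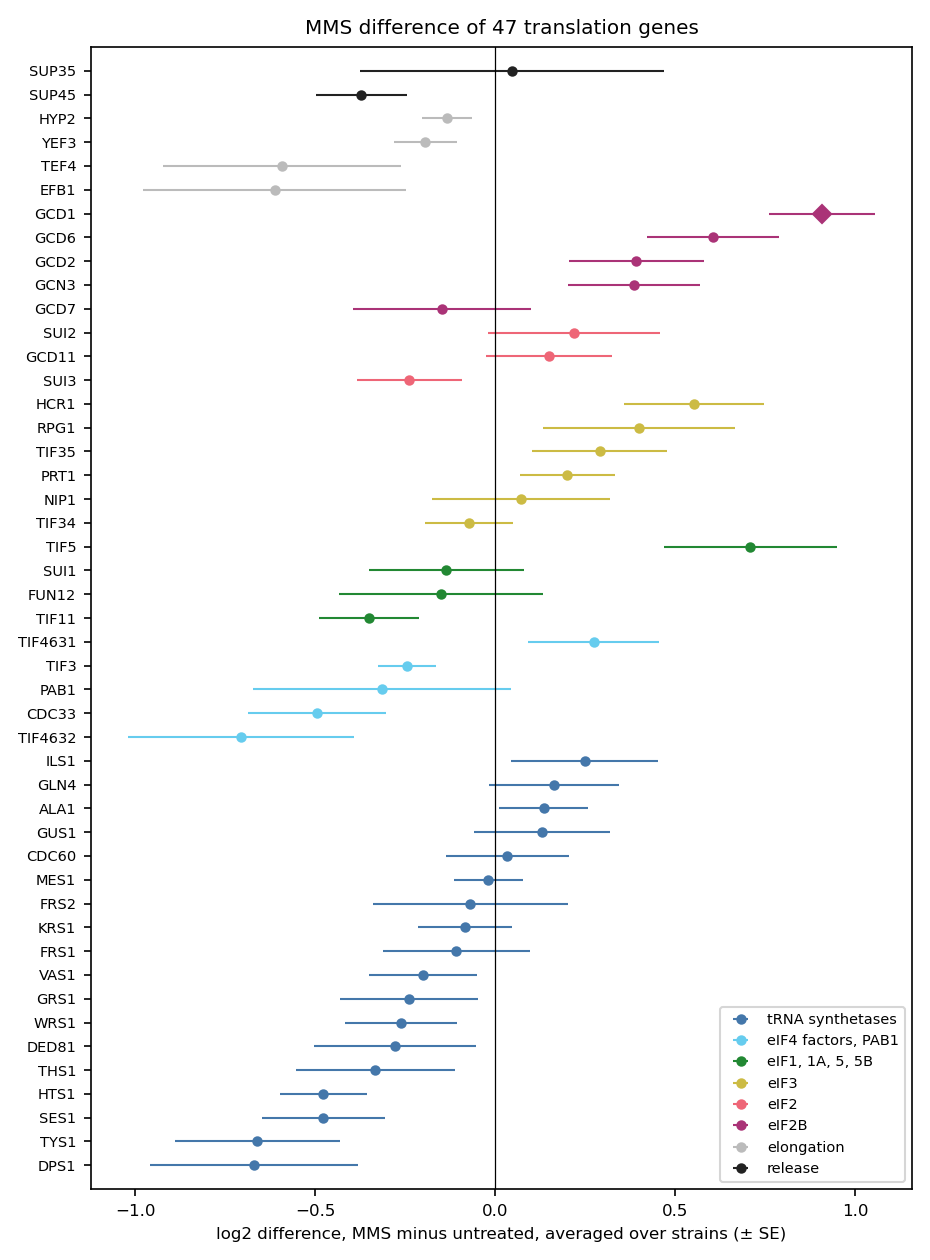
Log2 difference, MMS minus untreated averaged over strains, with its standard error, for the 47 genes grouped by class. The diamond marks GCD1 (0.91), the gene that passed. Every other gene lies between -0.71 (TIF4632) and 0.71 (TIF5).

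All 4 elongation factor genes had an averaged MMS difference below 0, and none passed. EFB1 and TEF4 encode the alpha and gamma subunits of eEF1B, the exchange factor of eEF1A, and each had 2 probe sets, which were averaged. EFB1 read 9428 and 14308 in untreated wild type, 4473 and 9140.3 with MMS, 9955 and 7612 in the untreated null strain and 4747 and 9648 with MMS. TEF4 read 1348 and 3105 in untreated wild type and 678 and 1207 with MMS, and 919.6 and 870.3 in the untreated null strain and 881 and 899 with MMS. For TEF4 the second untreated wild-type array stood alone. The wild-type difference was -0.86 ± 0.52 for EFB1 and -1.18 ± 0.47 for TEF4 (limma adjusted p = 0.386 and 0.210), and in the null strain they were -0.36 ± 0.52 and -0.01 ± 0.47. The probe sets of TEF4 gave -1.50 ± 0.48 and -0.86 ± 0.50 in wild type, and 0.16 ± 0.48 and -0.17 ± 0.50 in the null strain. Those of EFB1 gave -1.04 ± 0.67 and -0.69 ± 0.37, and -0.55 ± 0.67 and -0.17 ± 0.37. The probe sets of 1 gene lay on the same side of 0 in wild type, and in the null strain those of TEF4 did not. They were read on the same arrays, so they are not independent measurements. YEF3, for the fungal factor eEF3, differed by -0.19 ± 0.09 averaged over strains, and by -0.46 where arrays were scaled to their medians in place of quantile normalization.

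HYP2 encodes the form of eIF5A that is made in the presence of oxygen, and its paralog ANB1, which is not among the 47, encodes the low-oxygen form. HYP2 read 14054 and 12144 in untreated wild type and 10698 and 11040.2 with MMS, and 12071 and 12187 in the untreated null strain and 12465 and 11797 with MMS. ANB1 read 4616 and 5518 in untreated wild type and 228 and 408 with MMS, and 6335 and 4298 in the untreated null strain and 705 and 1031 with MMS. The averaged difference was -0.13 ± 0.07 for HYP2, with a 95% interval from -0.31 to 0.04. With median scaling it was -0.41, outside that interval, so the bound holds for quantile normalization alone. ANB1 fell by 3.33 ± 0.27 (limma adjusted p = 0.00515). The coding sequences of the paralogs are close, and whether each probe set reads its own gene alone was not tested. The other paralogs of elongation factor genes did not pass: HEF3, a copy of YEF3, differed by -0.29 ± 0.10 and CAM1, a second eEF1B gamma gene, by -0.31 ± 0.14.

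Translation ends when eRF1, encoded by SUP45, recognises the stop codon with the GTPase eRF3, encoded by SUP35. SUP45 read 4426 and 3766 in untreated wild type and 2838 and 2344 with MMS, and 3243 and 3616 in the untreated null strain and 2866 and 3657 with MMS. Its wild-type groups did not overlap and its null-strain groups did, and averaged over strains it differed by -0.37 ± 0.13 (limma adjusted p = 0.120). SUP35 was the gene whose untreated wild-type arrays stood farthest apart, at 1371 and 4552. With MMS it read 3064 and 2272 in wild type, and in the null strain 2993 and 2854 untreated and 2425 and 3604 with MMS. Its averaged difference was 0.05 ± 0.42, the largest standard error among the 47 genes in that comparison.

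The MMS differences in the strains come from separate arrays and can be set beside each other. Across the 47 genes their Pearson correlation was 0.65, and over all 7641 features it was 0.73. Genes are not independent replicates, so these are descriptions. Of the 47 genes, 19 lay below 0 in both strains and 14 above 0 in both, and of all 7641 features 2599 and 2774 did. The signs matched for 33 of the 47 genes and for 5630 of all features. The class medians were -0.62 in wild type and -0.01 in the null strain for elongation, -0.33 and 0.04 for the synthetases, and 0.39 and 0.57 for eIF2B. The wild-type medians moved to -0.46, -0.09 and 0.02 when the second untreated array was dropped, and to -0.81, -0.49 and 0.52 when the first was. With median scaling, the elongation medians were -0.98 in wild type and -0.16 in the null strain. Those of the synthetases were then -0.44 and 0.01, and those of eIF2B 0.40 and 0.59. The test of the difference between the MMS responses called 0 of the 47 genes, as it called 0 features in all (0%). At an unadjusted p under 0.05 it had 1 member, TIF34 (0.65 ± 0.25), and 4.75% of all features. The strains are therefore not shown to differ in the response of any single gene. The difference, null strain minus wild type, was above 0 for 36 of the 47 genes, with a median of 0.35, and for 3800 of 7641 features, with a median of 0. Its median size was 0.37 for the 47 genes and 0.28 over all features. Leaving out 1 array moved the median of the 47 between 0.18, without the first treated wild-type array, and 0.47, without the first untreated one. Groups did not overlap for 22 of 47 genes in wild type (background 51.1%) and for 15 in the null strain (background 44.4%). Taking all 4 treated against all 4 untreated arrays, GCD1 alone was separate, where the background was 22.2%.

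**Figure D4:**
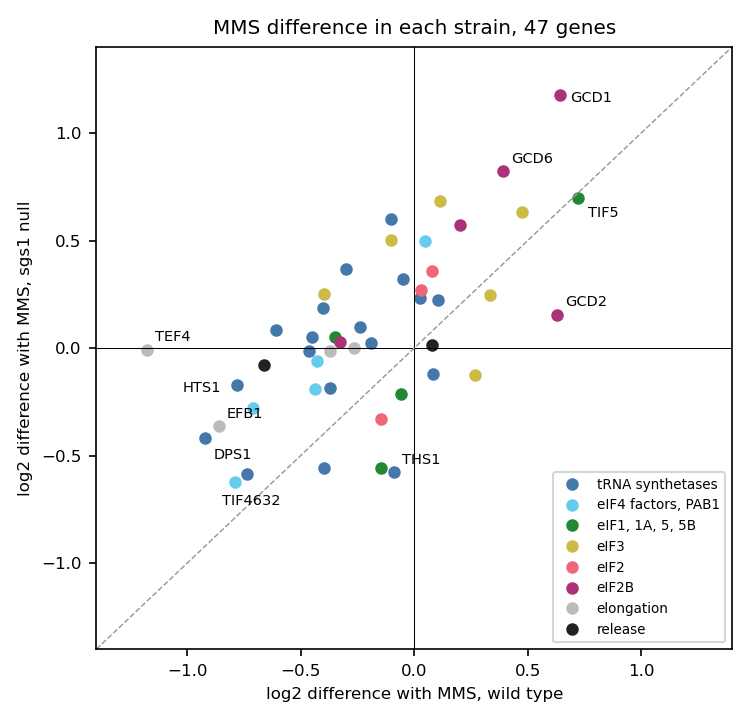
Log2 difference with MMS in wild type (horizontal) and in sgs1 null (vertical) for the 47 genes, coloured by class, with the line of equal differences dashed. GCD1 lies at 0.64 and 1.18, and TEF4 at -1.18 and -0.01.

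No strain difference passed. Limma called 0 of the 47 genes untreated (background 0.0262%), with MMS (0.0131%) and averaged over treatments (0.157%). At an unadjusted p under 0.05 there were 3 members untreated (background 10.5%), 0 with MMS (6.18%) and 2 averaged (11.2%). The 3 were PRT1, for eIF3b, WRS1 and HTS1. Untreated, sgs1 null minus wild type, they differed by -0.72 ± 0.19 (adjusted p = 0.346), -0.81 ± 0.22 (adjusted p = 0.355) and -0.48 ± 0.17 (adjusted p = 0.455). PRT1 read 2642 and 2899 in untreated wild type and 1922 and 1465 in the untreated null strain, and 2325 and 2857 against 2219.7 and 2551 with MMS. Groups did not overlap for 20 of 47 genes untreated (background 39%) and for 8 with MMS (background 25.5%), and over 4 arrays against 4 for 0 (background 3.23%). The median strain difference of the 47 was -0.25 untreated, -0.10 averaged and 0.04 with MMS.

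In each group the second array read higher than the first in the median translation gene, and the gap was widest in untreated wild type. On the second array of that group 35 of the 47 genes, and 16 of the 18 synthetases, read above the mean of the pair. The median difference between those arrays was 0.25 over the 47 genes, and 0.21 in wild type with MMS, 0.16 in the null strain with MMS and 0.05 in the untreated null strain, whereas quantile normalization sets it near 0 over all features. The median MMS difference in wild type was -0.19 with both arrays, -0.06 when the second was dropped and -0.44 when the first was. For the synthetases it was -0.09 and -0.49. The untreated strain difference had a median of -0.11 without the second array and -0.34 without the first. The number of synthetases below 0 in that comparison was 16 of 18 with both arrays and 11 without the second. Averaged over strains, the median MMS difference was -0.11 with all arrays and -0.03 without the first treated wild-type array, the one that moved it most. What set the arrays apart was not tested.

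**Figure D5:**
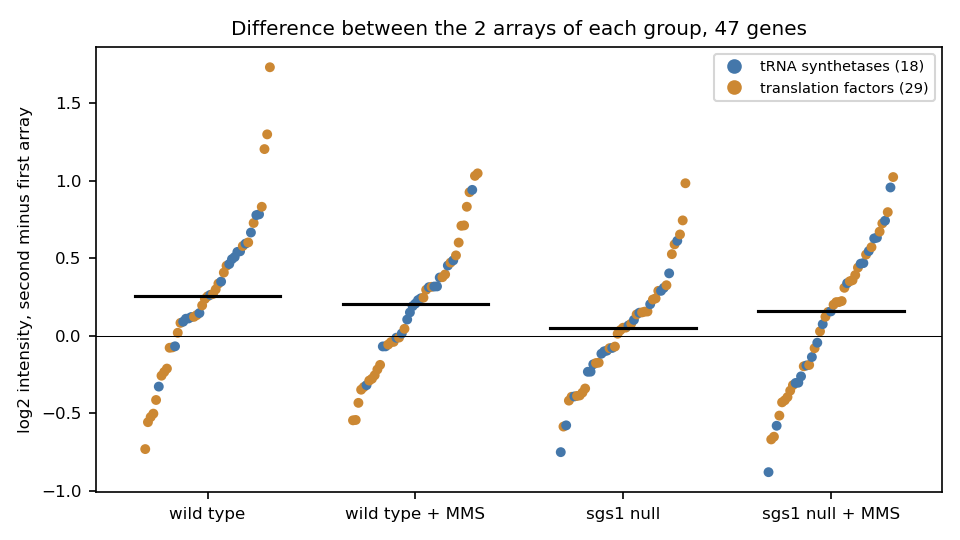
Log2 intensity of the second minus the first array of each group, 1 point per gene in order of size, with the median as a bar. The median is 0.25 in untreated wild type, 0.21 in wild type with MMS, 0.05 in untreated sgs1 null and 0.16 in sgs1 null with MMS, and SUP35 is the highest point, at 1.73.

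Other genes of protein synthesis were counted from lists of regulators, paralogs, tRNA enzymes, mitochondrial factors and ribosomal proteins. Averaged over strains, MMS raised 3 and lowered 1 of 19 regulators and cofactors, against the 15.6% of all features called. GCN20 and GCN1 form the complex that activates Gcn2. GCN20 went from 3301 and 3291 to 5109.5 and 5369.8 in wild type and from 3397 and 2807 to 4571 and 5312 in the null strain, and it rose by 0.67 ± 0.09 (limma adjusted p = 0.0149). GCN1 went from 313 and 409 to 199.7 and 209 and from 227 and 233 to 186 and 188, and it fell by 0.55 ± 0.10 (adjusted p = 0.0279). The treated and untreated arrays of each were separate in each strain.

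The kinase gene GCN2 rose by 0.52 ± 0.08 (limma adjusted p = 0.0183), from 199 and 215 to 363 and 319.6 in wild type and from 308 and 346 to 424 and 397 in the null strain. With median scaling GCN2 did not pass (0.37, adjusted p = 0.106). GCN4 mRNA differed by 0.21 ± 0.07 averaged over strains and did not pass (adjusted p = 0.102), and with median scaling it was at -0.05. In wild type it went from 8906 and 9156 to 11190 and 12848, a difference of 0.41 ± 0.09 (adjusted p = 0.0726). In the null strain it read 11536 and 12047 untreated and 11797 and 11936 with MMS, a difference of 0.01 ± 0.09. CDC123, whose product assembles eIF2, rose by 0.88 ± 0.18 (adjusted p = 0.0359). Of 14 paralogs and modifiers of elongation factors, 3 rose and 1, ANB1, fell. The risers were DPH6 (1.12 ± 0.20), which acts in the diphthamide modification of eEF2, and the methyltransferase genes EFM1 (1.11 ± 0.22) and EFM5 (0.99 ± 0.13), whose products modify eEF1A. Of 24 genes of tRNA processing, 3 rose: GCD10 (0.85 ± 0.18) and TRM5 (0.72 ± 0.15), which encode tRNA methylation proteins, and POP1 (0.41 ± 0.09), for a subunit of RNase P and RNase MRP. With median scaling POP1 did not pass (adjusted p = 0.0765). Of 20 mitochondrial synthetases and factors, 2 fell: the elongation factor gene MEF1 (-0.70 ± 0.16) and the ribosome recycling factor gene RRF1 (-0.65 ± 0.08). MEF1 did not pass with median scaling (adjusted p = 0.0503) or on the deposited scale (0.0828). The adjusted p of these 8 genes lay between 0.0125 and 0.046 in limma's fit. Of 80 cytosolic ribosomal protein genes, 1 rose and 7 fell, with a median of -0.13, where the 47 translation genes had a median of -0.11. The called shares were below the 15.6% of all features for the ribosomal proteins, the tRNA processing genes and the mitochondrial factors. They were above it for the regulators and for the paralogs and modifiers, with no test of either. In such short lists 1 gene moves the share, and GCN2, among the regulators called, did not pass with median scaling. The lists were also chosen with earlier results of these data known.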

How the data were processed

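The deposited table held 1 intensity per probe set on a linear scale for each of 8 arrays. The sources used here name no software, scaling or background correction for these deposited values, and array means lay between 1905.8 and 1999.8. Of 8363 probe sets, 32 controls and 1 with a missing value were left out. Symbols came from the platform annotation. Of the rest, 6269 probe sets had 1 symbol, 309 several and 1752 none, and only those with 1 were named. Arrays were quantile normalized, values below the 10th percentile (97.11) were raised to it, and log2 values of probe sets of 1 gene were averaged. The 7641 features were fitted in R 4.3.3 with limma 3.58.1 (4 group means, eBayes, 7 two-sided contrasts, Benjamini-Hochberg over all features, threshold 0.05). Values after ± are standard errors. The fit was tested on simulated data, but the normalization, the floor and the averaging of probe sets were not. Differences are relative to each array's other features. Precision is limited by having 2 arrays a group. Array values were printed for genes past the threshold, at either end of their class, or with a second probe set or a paralog among the 47, and for HTS1 and PRT1, chosen after their values were seen. From the lists, genes past the threshold and ANB1, HEF3, CAM1, GCN2 and GCN4 were named. Members and lists were chosen with earlier results of these data known. Promoter motifs were planned but not searched, since no sequences were used here. Alternatives were other scalings, floors, filters, probe set rules, a trend, a block and leaving out arrays.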

Additional observations from a re-analysis of the deposited data

How the results depend on the processing

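Of the 47 genes, the number called stayed within 1.5 times the reported one under the floors, the deposited scale, the dim filter, the brightest probe set and the intensity trend, in all 7 comparisons. With median centring it was 1 for MMS in wild type (HTS1) and 2 averaged over strains (HTS1 and GCD1). In the main fit, the shares of all features called in those comparisons were 6.35% and 15.6%, and 2.51% for MMS in the null strain. Apart from the averaged count with the block, given below, the numbers of all features called under the other settings are not given here. The medians under median centring were -0.33 for MMS in wild type, -0.41 for the untreated strain difference and -0.21 for the averaged one, each below its main value by more than the spread between arrays (0.11), while the median over all features lay between -0.05 and 0.03. Blocking on the mark rep, which the second array of each group carries, gave 1 call for MMS in the null strain (GCN3) and 4 averaged over strains (CDC33, HCR1, GCD1 and GCN3). The correlation of the arrays' deviations between groups ran from -0.08 to 0.67, so the mark was not taken as a pairing. Over all features the block called 1847 in place of 1189 averaged over strains. GCD1 kept its call averaged over strains in those 8 settings (adjusted p from 0.013 to 0.0274) and lost it without either untreated wild-type array (0.0669 and 0.0599), the second treated wild-type array (0.0614), the second untreated null array (0.0571) or either treated null array (0.0572 and 0.0653). Leaving out 1 array, the number called ran from 0 to 1 for MMS in wild type and averaged over strains and was 0 in the other 5 comparisons. The wild-type call was HTS1, without either treated null array. The averaged call was GCD1 in 2 fits, GCD6 without the first untreated wild-type array, HTS1 without the second treated null array and none in the other 4. The medians ran from -0.442 to -0.0605 for MMS in wild type, -0.00255 to 0.15 in the null strain and -0.15 to -0.03 averaged. They ran from -0.34 to -0.11 for the strain difference untreated, -0.0576 to 0.16 with MMS, -0.15 to -0.02 averaged and 0.18 to 0.47 for the difference between responses.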
